A study of Mus musculus with 12 samples.

Results

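The proteasome genes of mouse liver were followed through acute iron overload and a glucocorticoid stimulus. The proteasome degrades proteins tagged with ubiquitin. Its 20S core is a barrel of alpha rings, which gate the entrance, and beta rings, which hold the proteolytic sites, and a 19S cap recognises, unfolds and feeds the substrates. In immune cells, and in other cells exposed to interferon, the catalytic beta subunits can be replaced by immunoproteasome counterparts that favour peptides for MHC class I presentation, and transcription factors of the cap'n'collar family, NFE2L1 in particular, can raise most subunit genes together when proteasome capacity falls short.

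Members were all protein-coding genes whose mouse symbol begins with Psma, Psmb, Psmc, Psmd, Psme, Psmf or Psmg followed by a number, a rule that uses no expression value. This gave 51 of the 55414 genes counted, and 5 pseudogenes with such names, none with more than 4 counts in a library, were left out. The members comprised 8 alpha subunits, 4 structural, 3 constitutive catalytic and 3 immunoproteasome catalytic beta subunits, and the thymoproteasome subunit Psmb11. They further comprised 6 ATPases and 11 other subunits of the 19S cap, 3 chaperones of 19S and 4 of 20S assembly, 5 activators, the regulator Psmf1, and 2 genes that match by symbol alone, Psmc3ip, a recombination factor, and Psme3ip1. Of these, 49 passed the filter on low counts, among 13857 genes tested. Psmb11, which belongs to thymic epithelium, had 0 counts in all livers except FeSO4/PBS mouse 3 with 3, and Psmc3ip had between 1 and 14 counts, so that neither was tested.

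RNAseq was performed on livers of 12 female C57Bl/6J mice aged 8 to 12 weeks, 3 in each of 4 groups. The first i.p. injection was saline (NaCl) or 300 mg/kg FeSO4, and 6 h later the mice received PBS or 10 mg/kg dexamethasone (DEX), a synthetic glucocorticoid, with livers taken 2 h after that. The groups are called NaCl/PBS, NaCl/DEX, FeSO4/PBS and FeSO4/DEX, and each library is 1 mouse. Between 16335651 and 23827340 reads per library fell on genes (median 19602514). Levels are given as normalized counts, scaled with edgeR's TMM factors to a common library size, and changes as log2 fold changes (LFC) ± standard error. A gene is said to rise or fall where edgeR's quasi-likelihood test, adjusted over all tested genes, gave an FDR of 0.05 or less. Whole liver was sequenced, so fewer cells of a type and less RNA per cell cannot be told apart.

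In livers without iron or DEX the highest levels were those of core subunits. Per kilobase of canonical transcript, the highest NaCl/PBS levels belonged to Psmb6, one of the constitutive catalytic subunits, at 1555 ± 59 (SD, n = 3), and to Psmb7, another, at 1490 ± 36.5, and these neighbours in the order differed by little more than 1 SD. The third constitutive catalytic subunit, Psmb5, had only 239 ± 29.5 per kilobase. The immunoproteasome subunits Psmb10, Psmb8 and Psmb9 had 470 ± 8.99, 306 ± 29.3 and 217 ± 19.8. The testis-type alpha subunit Psma8 was the lowest tested member with 12.5 ± 4.25. These levels depend on the transcript length chosen, and Psmb1, whose canonical transcript runs to 6002 bases, had 340 ± 9.98.

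FeSO4 without DEX raised a large part of both the core and the cap, while the immunoproteasome subunits and several accessory members did not share in the rise. Against NaCl/PBS, 23 of 49 tested members were higher in FeSO4/PBS livers and 5 were lower, whereas 27.2% of all tested genes were higher and 27.3% lower. The median LFC was 0.27 for the members and -0.02 for all genes. In 27 members the 3 FeSO4/PBS livers all lay above the 3 NaCl/PBS livers and in 6 all below, against 29% and 31% of all genes. Most rises were modest: with an LFC beyond 1 in size required as well, 2 members were higher (12.5% of all genes) and 1 was lower (14.7%). Scaling by library size alone shifted the median LFC of all genes from -0.02 to -0.34 and that of the members to -0.05. It gave 9 members higher and 11 lower. The members lay 0.28 above all genes under either scaling, but by construction, as a change of scaling shifts all genes nearly alike. The LFC was positive in 39 members under TMM and in 23 under library size, and Psmb7 was the only one of the 23 higher calls whose LFC turned negative.

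FeSO4/PBS mouse 1 stood above the others of its group. It was the highest of its group in 42 of 49 members (85.7%), against 39.1% of all tested genes, and the members together took 0.344% of its counts, against 0.289% and 0.285% in mice 2 and 3 and 0.287% to 0.303% in the NaCl/PBS livers. Without that mouse, 22 members were higher and 5 lower, but the rises were smaller. The median LFC of the members was 0.22, against 0.27 with it. It was 0.31 for the 20S core without Psma8 and the immunoproteasome and 0.40 for the 19S cap. Both were the lowest among the 12 fits that left out 1 mouse. Psmb5 went from 0.62 to 0.43 and Psmc4 from 0.73 to 0.52, while the fall of Psmb9 went from -1.10 to -1.31.

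**Figure D1:**
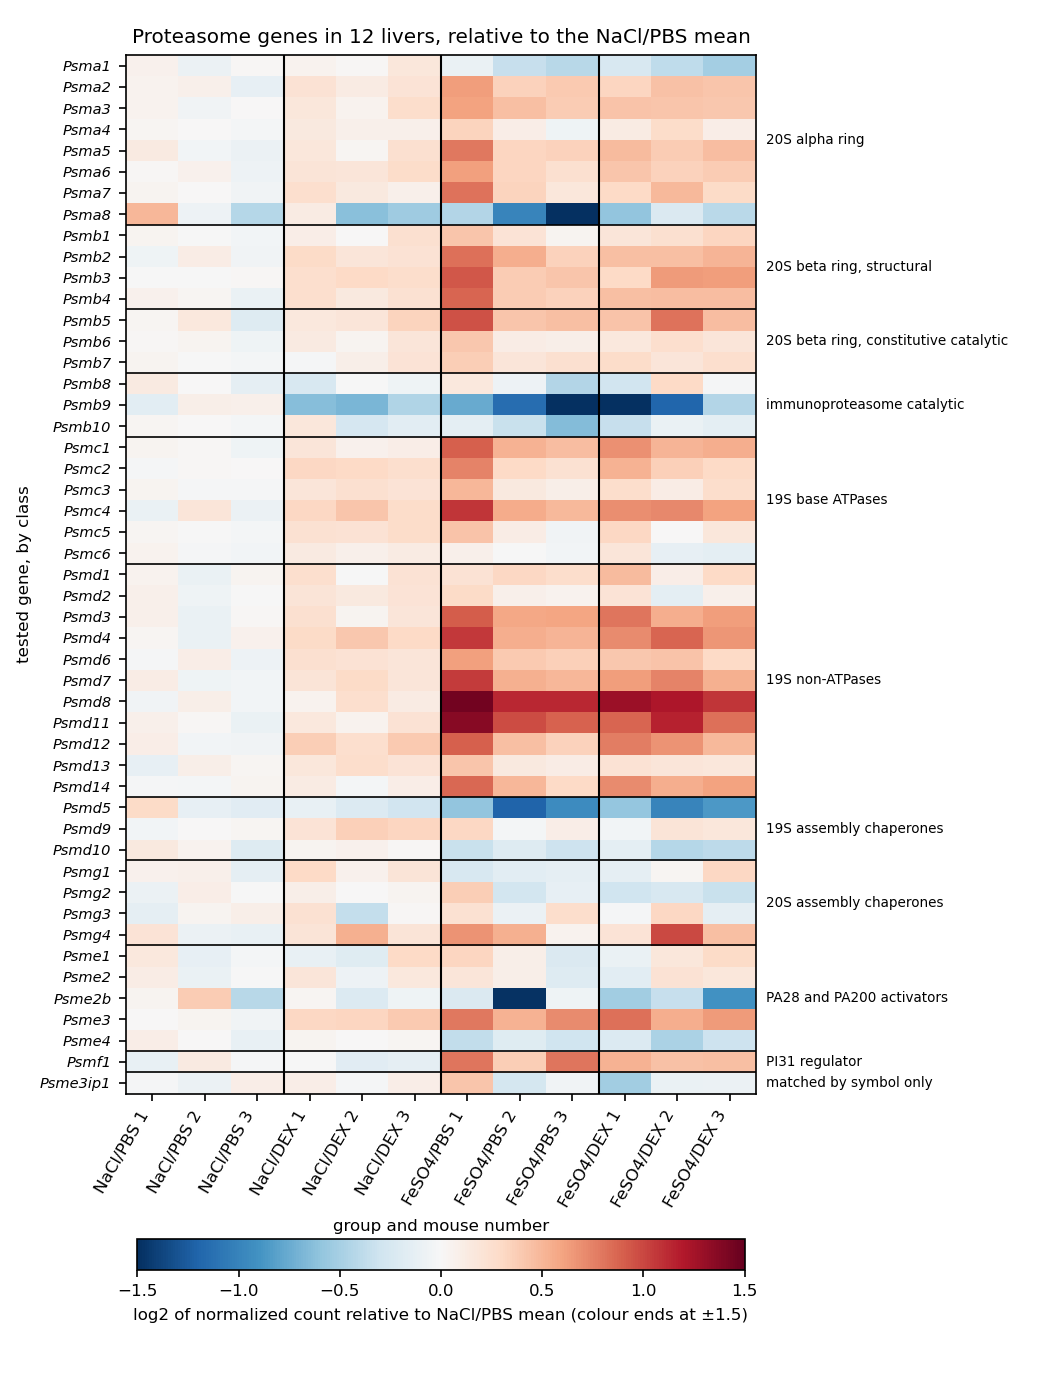
Heat map of the log2 normalized count of the 49 tested members (rows, by class) in each of the 12 livers (columns, by group and mouse number), relative to the NaCl/PBS mean of the gene. Red cells run through most of the core and cap rows in FeSO4-injected mice, deepest in FeSO4/PBS mouse 1 and in the rows of Psmd8 and Psmd11, while Psmb9 and Psmd5 are blue; colours would shift towards blue in FeSO4-injected mice if libraries were scaled by size alone.

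Among the 19S subunits, 8 of the 11 non-ATPases and 3 of the 6 ATPases rose and none fell, with class medians of 0.58 and 0.35. The leading gene was Psmd8, which encodes the lid subunit RPN12. Its normalized counts were 1521, 1678 and 1530 in NaCl/PBS, 1631, 1868 and 1719 in NaCl/DEX, 4308, 3456 and 3441 in FeSO4/PBS, and 3845, 3655 and 3311 in FeSO4/DEX. All 6 FeSO4-injected livers lay far above all 6 others, and the rise was 2.37-fold in PBS-treated mice (LFC 1.24 ± 0.12, FDR 1.3e-06). Per kilobase, Psmd8 moved from rank 8 among the members in NaCl/PBS to rank 1 in both FeSO4 groups.

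Psmd11, which encodes the lid subunit RPN6, followed with 1424, 1365 and 1259 in NaCl/PBS and 3464, 2651 and 2483 in FeSO4/PBS (LFC 1.09 ± 0.14, FDR 1.6e-05). It had 1505, 1397 and 1569 in NaCl/DEX and 2460, 3006 and 2397 in FeSO4/DEX, so that its FeSO4-injected and saline-injected livers did not overlap either. Psmd4, the ubiquitin receptor RPN10, rose by an LFC of 0.72 ± 0.14, Psmd7, the partner of the deubiquitinase, by 0.71 ± 0.14, Psmd3 by 0.70 ± 0.12 and Psmd14, the deubiquitinase itself, by 0.57 ± 0.13. The scaffold subunits Psmd1 and Psmd2, to which substrate receptors dock, were not called, with LFCs of 0.27 ± 0.12 and 0.14 ± 0.11 (FDR 0.066 and 0.29), and neither was Psmd13 at 0.23 ± 0.10 (FDR 0.079).

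The ATPases form the hexameric motor of the cap and differed among themselves. Psmc4 had 1047, 1274 and 1055 in NaCl/PBS and 2352, 1654 and 1572 in FeSO4/PBS, without overlap, and rose 1.65-fold (LFC 0.73 ± 0.14, FDR 0.0007). Psmc6 had 1702, 1631 and 1602 against 1730, 1644 and 1593, groups that overlapped throughout, with an LFC of 0.01 ± 0.10 (FDR 0.95) that became -0.31 when libraries were scaled by size alone. Psmc3 had 0.26 ± 0.11 (FDR 0.067).

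In the 20S core, 5 of 8 alpha subunits, 3 of 4 structural beta subunits and 2 of 3 constitutive catalytic subunits rose, and 1 alpha subunit fell. Psmb3, a structural beta subunit, had 676, 678 and 689 in NaCl/PBS and 1296, 887 and 912 in FeSO4/PBS, without overlap (LFC 0.60 ± 0.14, FDR 0.0025). Psma5 led the alpha subunits with 614, 545 and 527 against 974, 699 and 712 (LFC 0.50 ± 0.13, FDR 0.005). None of the 14 core genes without Psma8 and the immunoproteasome was called higher under scaling by library size alone. The LFC then turned negative in Psma4 (-0.19), Psmb1 (-0.09), Psmb6 (-0.11) and Psmb7 (-0.05). It stayed positive, at 0.08 to 0.30, in Psma2, Psma3, Psma5, Psma6, Psma7, Psmb2, Psmb3, Psmb4 and Psmb5, and Psma1 was negative under both. The median of these 14 lay 0.48 above that of all genes under both scalings, by construction, as a change of scaling shifts all genes nearly alike.

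Psma1, although it encodes an obligate alpha subunit, was the core gene that fell, with 1410, 1271 and 1363 in NaCl/PBS and 1252, 1060 and 1008 in FeSO4/PBS (LFC -0.28 ± 0.11, FDR 0.044). The groups did not overlap, but the call was lost in 8 of 12 fits that left out 1 mouse. In DEX-treated mice Psma1 fell from 1395, 1359 and 1512 to 1139, 1030 and 944 (LFC -0.45 ± 0.11, FDR 0.0047), and no left-out mouse removed that call. Psma8 had 29.5, 19.6 and 15.2 against 15.1, 10.2 and 3.83, with an LFC of -1.11 ± 0.45 (FDR 0.052). Psmb1 was not called (0.23 ± 0.11, FDR 0.092).

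The 3 proteolytic sites each have a constitutive and an immunoproteasome gene, namely Psmb6 and Psmb9 (caspase-like site and its replacement), Psmb7 and Psmb10 (trypsin-like), and Psmb5 and Psmb8 (chymotrypsin-like). Psmb5 rose from 413, 453 and 353 in NaCl/PBS to 783, 540 and 551 in FeSO4/PBS (LFC 0.62 ± 0.16, FDR 0.0043). Psmb7 had 1775, 1720 and 1692 against 2241, 1961 and 2044 (0.27 ± 0.10, FDR 0.03), a rise that turned to -0.05 (FDR 0.67) under scaling by library size alone, and Psmb6 had 1636, 1656 and 1541 against 2131, 1741 and 1714 (0.21 ± 0.10, FDR 0.11). None of these 3 constitutive subunits had overlapping groups.

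The immunoproteasome partners went the other way or were not called. Psmb9 had 263, 310 and 307 in NaCl/PBS, 188, 182 and 213 in NaCl/DEX, 173, 132 and 102 in FeSO4/PBS and 103, 128 and 215 in FeSO4/DEX. The NaCl/PBS livers stood above all 9 others, and Psmb9 fell to 0.466 of its control level after FeSO4 (LFC -1.10 ± 0.24, FDR 0.0014). Psmb10 had 628, 617 and 604 against 555, 490 and 394, without overlap (-0.36 ± 0.14, FDR 0.043), a call lost in 7 of 12 fits with 1 mouse left out and, with an FDR of 0.052, in DESeq2. Psmb8 had 570, 519 and 471 against 580, 491 and 383, which overlapped (-0.10 ± 0.17, FDR 0.63).

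**Figure D2:**
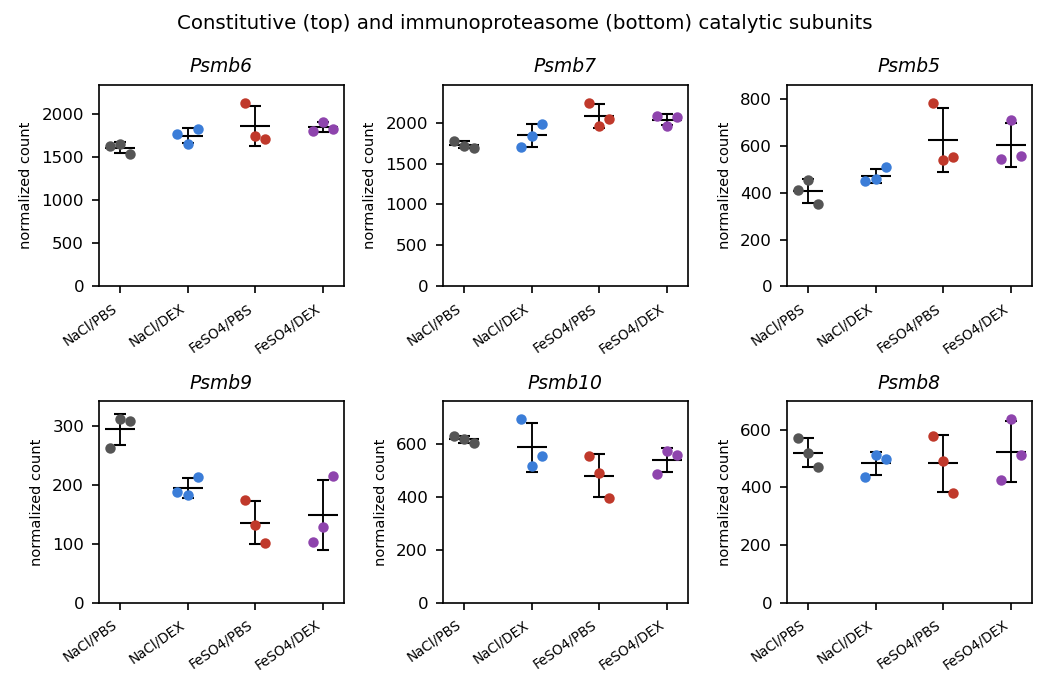
Normalized counts of the 6 catalytic subunits in the 4 groups, with constitutive subunits above and their immunoproteasome partners below; points are mice, the horizontal line is the mean and bars are the SD (n = 3), and each axis starts at 0. Psmb5 sits at 353 to 453 in NaCl/PBS and 540 to 783 in FeSO4/PBS, whereas Psmb9 drops from 263 to 310 to 102 to 173.

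Because each pair is measured within the same library, the log2 ratio of the immunoproteasome to the constitutive subunit does not depend on the scaling between libraries. Psmb9 to Psmb6 had -2.64, -2.41 and -2.33 in NaCl/PBS, -3.23, -3.18 and -3.09 in NaCl/DEX, -3.62, -3.71 and -4.06 in FeSO4/PBS and -4.11, -3.89 and -3.08 in FeSO4/DEX. Psmb10 to Psmb7 had a mean of -1.49 ± 0.011 (SD, n = 3) in NaCl/PBS and -2.13 ± 0.21 in FeSO4/PBS. Psmb8 to Psmb5 had 0.36 ± 0.14 in NaCl/PBS and -0.37 ± 0.20 in FeSO4/PBS. The NaCl/DEX livers had -0.04, 0.16 and -0.03 for this pair, all below the NaCl/PBS values of 0.47, 0.20 and 0.41. Psmb9 to Psmb6 was also lower in all NaCl/DEX livers than in all NaCl/PBS livers. For Psmb10 to Psmb7 the NaCl/DEX values of -1.30, -1.83 and -1.85 lay on both sides of the NaCl/PBS values. An effect of DEX on these ratios was not tested. In each pair all 3 FeSO4/PBS livers lay below all 3 NaCl/PBS livers, and among DEX-treated mice 2, 2 and 3 FeSO4 livers lay below all NaCl/DEX livers.

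Over all 12 mice the FeSO4-injected minus NaCl-injected difference was -0.93 for Psmb9 to Psmb6, -0.45 for Psmb10 to Psmb7 and -0.48 for Psmb8 to Psmb5. A two-sided exact permutation test, with labels exchanged within the PBS-treated and within the DEX-treated mice, gave p = 0.02, 0.02 and 0.005, the last being the smallest value it can give, and 0.02, 0.02 and 0.015 after adjustment over the 3 pairs. In PBS-treated mice alone the differences were -1.34, -0.64 and -0.72, where 3 against 3 mice cannot give an exact p below 0.1. In DEX-treated mice alone they were -0.53, -0.26 and -0.24, with adjusted exact permutation p of 0.4, 0.4 and 0.3.

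Psmb8 and Psmb9 lie within the MHC region of chromosome 17 beside the peptide transporter genes Tap1 and Tap2, with 490 bases between Psmb8 and Tap1. The annotated bodies of Psmb9 (chr17:34400960-34406738, minus strand, mm39) and Tap1, on the opposite strand, share 743 bases, and the strand setting of the counting is not given in the sources used here, so reads from those bases cannot be assigned with certainty. Tap1 fell by 1.00 on the log2 scale after FeSO4 (FDR 3.3e-05). Of 17 tested genes of interferon signalling and class I presentation, 9 fell and 3 rose in FeSO4/PBS livers, against 27.3% and 27.2% of all genes. Among the falls were Irf1 (-1.87), a transcription factor of interferon responses that also acts on Psmb9, and Gbp7 (-1.30). Rsad2 was among the rises (1.27). In DEX-treated mice 5 of the 17 rose and 3 fell after FeSO4, near the 22.4% and 20.9% of all genes. After DEX in saline-injected mice 8 fell and none rose, against 7.15% and 6.5% of all genes. Irf1 was among those falls (-2.72, FDR 1.3e-06).

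Immune cells hold much of the immunoproteasome of an organ, and their markers moved as well. Of 8 macrophage and Kupffer cell markers 7 fell after FeSO4 and none rose, and their summed normalized counts were 7818 to 9138 in NaCl/PBS, 6972 to 8165 in NaCl/DEX, 4061 to 4827 in FeSO4/PBS and 3417 to 5593 in FeSO4/DEX. Of 6 general leukocyte markers 3 fell, with sums of 1372 to 1608, 1000 to 1116, 1099 to 1249 and 1032 to 1292 in the same order. Of 5 B cell markers 2 fell, but the summed counts overlapped, with 84.2 to 274 in NaCl/PBS and 124 to 180 in FeSO4/PBS, and none of the 5 tested T and NK cell markers was called. Neutrophil and monocyte markers rose in 4 of 6 cases and fell in 1, from sums of 102 to 233 to sums of 645 to 828. Of 5 endothelial markers 1 rose and 2 fell (4495 to 5229 against 3094 to 4437), and of 10 hepatocyte markers 4 rose and none fell (2367090 to 2766190 against 3001570 to 3377260). For comparison, 27.2% of all tested genes rose and 27.3% fell between these NaCl/PBS and FeSO4/PBS livers. No marker was at 0 in all 12 libraries, and the part of these cells in the Psmb9 and Psmb10 values was not tested.

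Among alternative activators and regulators the changes went both ways. Psme3, which encodes the nuclear activator PA28 gamma, rose from 912, 935 and 874 to 1566, 1306 and 1486 without overlap (LFC 0.68 ± 0.11, FDR 0.00011). Psme1 and Psme2, the interferon-inducible PA28 alpha and beta, which lie tail to tail on chromosome 14 with 2860 bases between them, had LFCs of 0.08 ± 0.16 and 0.03 ± 0.13 (FDR 0.71 and 0.86), the latter turning to -0.29 (FDR 0.046) when libraries were scaled by size alone. The near-identical copy Psme2b had only 10.2 to 38.3 normalized counts, and reads that match both copies were not counted. Psme4, the PA200 activator, fell from 2560, 2406 and 2218 to 1849, 2115 and 1945 (-0.28 ± 0.10, FDR 0.032), without overlap, a call lost in 4 of 12 fits with 1 mouse left out.

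Psmf1, which encodes PI31, an inhibitor of the core in vitro that also carries proteasomes along axons, rose from 455, 540 and 489 to 862, 640 and 863 (LFC 0.67 ± 0.12, FDR 0.00044). All 6 FeSO4-injected livers lay above all 6 saline-injected ones.

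None of the 7 assembly chaperones tested rose after FeSO4, and 1 fell. Psmd5, a chaperone of the 19S base, had 656, 495 and 477 in NaCl/PBS, 496, 465 and 439 in NaCl/DEX, 357, 233 and 279 in FeSO4/PBS and 360, 271 and 295 in FeSO4/DEX. It was lower in all 6 FeSO4-injected livers than in the 6 others and fell to 0.534 of its control level (LFC -0.91 ± 0.17, FDR 0.00051). The other 19S chaperones, Psmd9 and Psmd10, had 0.14 ± 0.11 and -0.29 ± 0.15 (FDR 0.31 and 0.12). The Psmd9 annotation shares 10948 bases with the opposite-strand gene Hpd, an abundant liver transcript, so its count carries the same reservation on strand as that of Psmb9. The annotations of 22 members overlap another protein-coding gene. Among them are Psmf1 (3464 bases with Tmem74b) and Psmd5 (602 with Cutal), both on opposite strands. In Psma2, Psmd1, Psmg3 and Psme2b such a gene lies on the same strand. None of the 20S chaperones Psmg1 to Psmg4 was called, with LFCs between -0.18 ± 0.14 for Psmg1 and 0.44 ± 0.24 for Psmg4. Psme3ip1, which binds PA28 gamma, had 0.06 ± 0.17 (FDR 0.79).

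**Figure D3:**
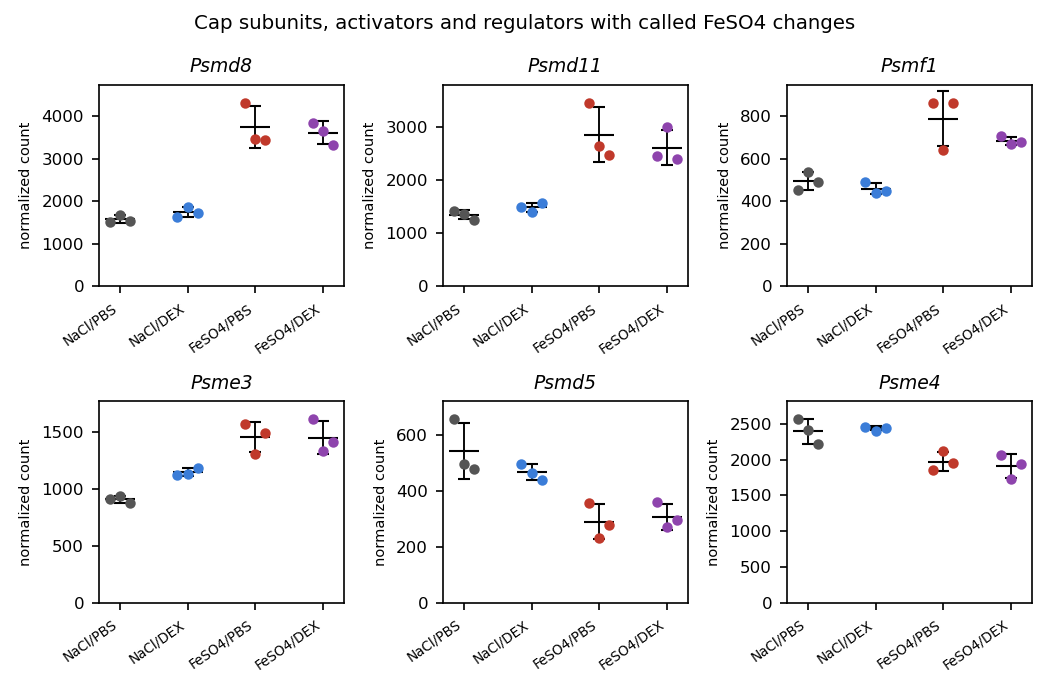
Normalized counts of 6 members called after FeSO4 in both PBS-treated and DEX-treated mice; points are mice, the line is the mean and bars are the SD (n = 3), and each axis starts at 0. Psmd8, Psmd11, Psmf1 and Psme3 are higher and Psmd5 and Psme4 lower in FeSO4-injected mice, with Psmd8 at 3311 to 4308 against 1521 to 1868.

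The FeSO4/DEX and NaCl/DEX livers gave a second estimate of the FeSO4 effect in separate mice. Here 10 members were higher (22.4% of all genes) and 3 lower (20.9%), and all 13 had the same call in PBS-treated mice. Scaling by library size alone gave 5 higher and 9 lower and ended the calls of Psma3, Psmc1, Psmd4, Psmd7 and Psme3. The 13 calls under TMM were Psma3, Psmc1, Psmd3, Psmd4, Psmd7, Psmd8, Psmd11, Psmd14, Psme3 and Psmf1 on the higher side and Psma1, Psmd5 and Psme4 on the lower. In 21 members all FeSO4/DEX livers lay above all NaCl/DEX livers and in 8 all below, against 28.8% and 27.1% of all genes. With an LFC beyond 1 required, Psmd8 alone was higher (10.6% of all genes) and 0 members were lower (9.83%). Of the higher calls, 6 of the 10 belonged to the 11 non-ATPases. Psmd8 rose 2.07-fold (LFC 1.05 ± 0.12, FDR 8e-06), Psmd11 1.76-fold (0.81 ± 0.13) and Psmd14, with 0.56 ± 0.13, by about as much as in PBS-treated mice. Leaving out NaCl/DEX mouse 1 reduced the higher calls to 6. Leaving out FeSO4/PBS mouse 1, which is in neither group of this contrast, raised the higher calls from 10 to 15 and the lower calls from 3 to 6.

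Across the 49 members the LFCs of both sets correlated with Pearson's r = 0.87 and Spearman's rho = 0.94, against 0.80 and 0.77 across all genes, and genes of one library are not independent replicates. The sign was shared by 40 members (81.6%), close to the 80.5% of all genes. In 40 members the LFC was larger in size in PBS-treated mice, against 60.5% of all genes, and in 36 when libraries were scaled by size alone. The members' median was 0.27 in PBS-treated and 0.13 in DEX-treated mice under TMM, and -0.05 and -0.07 under library size alone. These lie 0.28 and 0.11 above all genes under either scaling, where the match between scalings holds by construction. Without FeSO4/PBS mouse 1 the median in PBS-treated mice under TMM was 0.22. In DEX-treated mice Psmb9 had an LFC of -0.39 ± 0.24 (FDR 0.21) and Psmb10 of -0.12 ± 0.14 (FDR 0.5). Psmb5, at 0.35 ± 0.16 (FDR 0.089), was not called either.

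**Figure D4:**
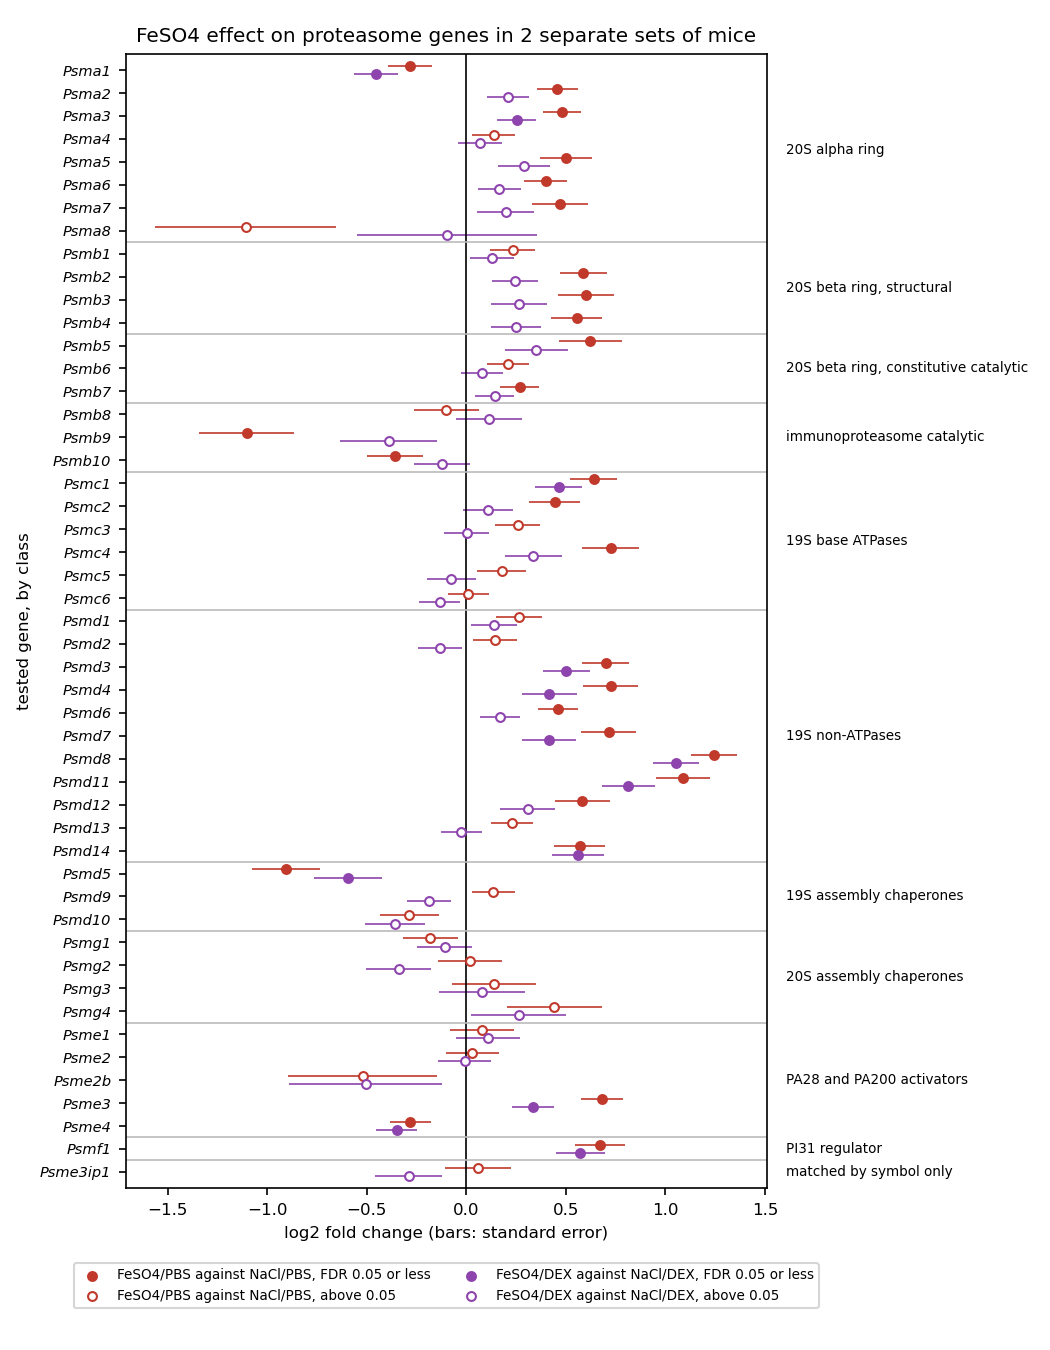
LFC after FeSO4 of each tested member, by class, in PBS-treated mice (red) and DEX-treated mice (purple); bars are standard errors, filled points had an FDR of 0.05 or less and the vertical line marks 0. Red points of the core and the cap mostly lie to the right of 0 and of their purple partners, with Psmd8 at 1.24 and 1.05, and scaling by library size alone moves both sets to the left, with medians of -0.05 (red) and -0.07 (purple).

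In saline-injected mice, 1 of the 49 members was called after DEX. This was Psme3, with 1123, 1134 and 1186 against 912, 935 and 874 in NaCl/PBS (LFC 0.34 ± 0.11, FDR 0.046; 6.5% of all genes were higher), without overlap. No member was called lower by edgeR, where 7.15% of all genes were, and at an unadjusted p under 0.05 there were 6 higher and 1 lower, shares near or under the 11.9% and 15% of all genes, the last being Psmb9 (-0.59 ± 0.23, FDR 0.12). The LFC was positive in 41 of 49 members with a median of 0.15, against -0.02 for all genes, and under library size alone it was positive in 24 with a median of -0.0077, against -0.18. Under TMM, 22 members had all NaCl/DEX livers above all NaCl/PBS livers (17.6% of all genes) and 1, Psmb9, had them all below (20.3%). With an LFC beyond 1 required, 0 members were higher or lower, against 2.97% and 3.41% of all genes. These livers share their NaCl/PBS controls with the FeSO4 comparison. The Psme3 call was lost in 7 fits with 1 mouse left out, while leaving out FeSO4/PBS mouse 1 gave 7 members higher, and a fit of the 6 libraries alone gave 8.

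After FeSO4, no change by DEX was called: edgeR called 0 higher and 0 lower, 0 at an unadjusted p under 0.05 (3.2% and 3.29% of all genes were higher and lower at that p), and DESeq2 0, where edgeR called 0% of all genes as well. In 0 members did the FeSO4/DEX and FeSO4/PBS livers separate, against 4.45% of all genes that were higher and 4.85% that were lower without overlap. The median LFC was -0.04, with a range from -0.31 to 0.63. The difference between the DEX responses of FeSO4-injected and saline-injected mice was called in 0 members by edgeR and by DESeq2 (2.99% and 3.2% of all genes were higher and lower in edgeR, and 2.14% and 2% with a difference beyond 1). Only Psme3 reached an unadjusted p under 0.05 (-0.34 ± 0.15, FDR 0.21), where 10.7% and 9.76% of all genes were higher and lower at that p, so a different DEX response of any member was not shown. The difference was positive in 8 of 49 members, with a median of -0.20 against 0.02 for all genes. Under library size alone the medians were -0.07 and 0.15. A shift of the members as a set was not tested.

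Genes that work with the proteasome but carry other names moved in part alongside it. Of 11 tested proteasome-bound or assembly factors 7 rose after FeSO4 in PBS-treated mice and none fell, against 27.2% and 27.3% of all genes. In DEX-treated mice 3 of the 11 rose and 1 fell, against 22.4% and 20.9% of all genes. The rises in PBS-treated mice were led by Zfand2a (LFC 3.03), which associates with proteasomes under arsenite stress. Zfand5, an activator in muscle wasting, came next (1.57). Txnl1, a thioredoxin on the cap, rose by 0.61 and Adrm1, the ubiquitin receptor RPN13, by 0.58, and the core maturation factor Pomp by 0.30 (FDR 0.04). Akirin2, which carries proteasomes into the nucleus, had 0.24 (FDR 0.096).

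Of 12 genes that control proteasome expression 4 rose and 1 fell after FeSO4 in PBS-treated mice, against 27.2% and 27.3% of all tested genes. The fall was that of Nfe2l1, the cap'n'collar factor of the proteasome recovery response, with a mean of 2181 in NaCl/PBS and 958 in FeSO4/PBS (LFC -1.19, FDR 7.2e-07). Ddi2, the protease that activates its protein, rose by 0.74, and the small partners and competitors Maff, Mafk and Bach1 rose by 2.88, 1.99 and 1.42. Nfe2l2, which encodes NRF2, had -0.07 (FDR 0.59). Of 16 genes of ubiquitin supply and delivery 9 rose and 3 fell, against the same shares of all genes. Among them the autophagy receptor Sqstm1 rose by 2.34, and Uba6, an activating enzyme, fell by 1.99. In DEX-treated mice 6 of the 12 rose and 1 fell after FeSO4, and 6 of the 16 rose and 2 fell. The shares of all genes were 22.4% higher and 20.9% lower there.

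Promoters were read because many, though not all, core and cap genes rose after FeSO4 in PBS-treated mice under TMM. The antioxidant response element is the site of the cap'n'collar factors. Windows from 250 bases before to 50 after the canonical GENCODE start (GRCm39) were searched on both strands. The core letters TGACNNNGC occurred in 8 of 49 tested members (16.3%; Psmb2, Psmb5, Psmb6, Psmc6, Psmd7, Psmd9, Psmd12 and Psmg2) and in 13.5% of the windows of all 12674 tested protein-coding genes. The interferon-type letters GAAANNGAA occurred in 8 members (16.3%, against 8.25%; Psma4, Psma5, Psmb3, Psmb4, Psmd4, Psmd7, Psmd9 and Psmg4). None of the 3 immunoproteasome subunits or the 5 activators held them. TTCNNNGAA occurred in 5 members (10.2%, against 7.55%), Psmb8 among them, and CCAAT in 17 (34.7%, against 39.5%). Psmd8 and Psmd11 held no match to TGACNNNGC.

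The stretches around the match are given for the core and cap genes that rose and hold one, and for Psmb6, whose match also lies close to its start. Capitals mark the match to TGACNNNGC or to its reverse complement, letters run 5′ to 3′ on the strand of the gene, and no capital stretch overlaps a match to another motif.
Psmb5 (chr14:54855457-54855544, minus strand): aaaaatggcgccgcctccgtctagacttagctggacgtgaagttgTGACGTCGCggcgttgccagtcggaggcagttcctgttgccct
Psmb6 (chr11:70416129-70416207, plus strand): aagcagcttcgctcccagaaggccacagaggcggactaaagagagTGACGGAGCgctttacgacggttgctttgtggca
Psmb2 (chr4:126571377-126571447, plus strand): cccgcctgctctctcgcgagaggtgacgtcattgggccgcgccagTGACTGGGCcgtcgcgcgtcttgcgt
Psmd7 (chr8:108315169-108315267, minus strand): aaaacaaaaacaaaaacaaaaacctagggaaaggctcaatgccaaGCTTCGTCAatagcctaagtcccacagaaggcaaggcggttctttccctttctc
Psmd12 (chr11:107370062-107370160, plus strand): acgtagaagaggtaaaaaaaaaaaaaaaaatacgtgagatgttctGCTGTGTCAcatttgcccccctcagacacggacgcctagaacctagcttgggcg
The match begins 18, 9 and 1 bases before the start in Psmb5, Psmb6 and Psmb2, whereas it begins 101 and 201 bases before it and lies on the opposite strand in Psmd7 and Psmd12. Of these genes Psmb2 rose by an LFC of 0.59 ± 0.12 and Psmd12 by 0.58 ± 0.14 after FeSO4. Psmc6, whose window also holds a match, had 0.01 ± 0.10, and Psmd8, without one, had 1.24 ± 0.12. Psmb6, Psmd9 and Psmg2, which hold a match as well, were not called. Whether a match goes with the LFC was not tested.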

How the data were processed

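Livers of 12 mice, 3 biological replicates in each of 4 groups, were analysed. Per the labels and methods, the authors made stranded mRNA libraries from total RNA, sequenced single-end reads, checked them with FastQC and mapped and counted them with STAR 2.7.10b on mm39. The deposited values are raw read counts per Ensembl gene, without normalization. The strand setting of the counting is not given in the sources used here, and reads matching several places are not counted by STAR. Columns of the authors' own comparisons were not used.

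Symbols, positions and biotypes came from GENCODE vM39 on GRCm39, the build of the counts, for 54749 of 55414 genes, so exons may differ from the authors' release. All 12 libraries entered 1 edgeR 4.0.16 quasi-likelihood model (R 4.3.3, limma 3.58.1) with 1 term for each group, fitted after filterByExpr and TMM scaling (factors 0.871 to 1.16). Calls had a Benjamini-Hochberg FDR of 0.05 or less, and LFCs used a prior count of 0.125. Standard errors are the size of the LFC divided by the square root of its F. The log2 ratios of subunit pairs used a pseudocount of 0.5 counts. Normalized counts are given at the mean effective library size. Python 3.11.15, numpy 2.4.6, pandas 2.3.3 and matplotlib 3.10.9 were used. The fit was tested on simulated data with 200 changed genes. With a log2 change of 0.5 in all FeSO4-injected mice, 1 of them was called for FeSO4/PBS against NaCl/PBS, and 132 with a change of 1. With a change of 1 in FeSO4/PBS mice alone, 66 were called for the difference between DEX responses. Far more genes were called in the livers, so these shares need not hold there. Precision is limited by the 3 mice a group. Members with few counts, such as Psma8 and Psme2b, had larger standard errors for FeSO4/PBS against NaCl/PBS (0.45 and 0.37) than Psmd8 (0.12).

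The members, although defined by symbol, and the lists were chosen as a subject with earlier results of these data known. Named were the catalytic subunits, activators and Psmf1, the extremes of each other class by LFC after FeSO4, members called after DEX, up to 10 uncalled members, members not tested, and up to 4 genes of each pathway list, with Nfe2l1, Nfe2l2, Pomp, Adrm1 and Akirin2. Psma1, Psma3, Psmb2, Psmc1, Psmd3, Psmd4, Psmd7, Psmd11, Psmd12, Psmd14, Hpd and Tap1, and genes named for a position or a motif, were added after their values had been seen. Some genes of the pathway lists are counted with their list and otherwise not reported here. Alternatives were DESeq2 1.42.0, other scalings, other filters, the replicate number as a block, the libraries of a comparison alone, a minimum LFC of 1 and fits that leave out single mice.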

Additional observations from a re-analysis of the deposited data

How the results depend on the processing

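Scaling by library size alone gave 9 higher and 11 lower members for FeSO4/PBS against NaCl/PBS, 5 and 9 for FeSO4/DEX against NaCl/DEX, and 0 and 1 for NaCl/DEX against NaCl/PBS, and turned the LFC after FeSO4 negative in 16 members, among them Psmb7 (-0.052), called higher under TMM, and Psme2 (-0.29) and Psmc6 (-0.31), which became called lower. Of the 23 higher calls of the TMM fit after FeSO4 in PBS-treated mice, 9 held (Psmc1, Psmc4, Psmd3, Psmd4, Psmd7, Psmd8, Psmd11, Psme3 and Psmf1) and 14 were lost, while the 5 lower calls all held; the shift of the median gene accounts for the direction of this change by construction. An LFC beyond 1 left 2 higher and 1 lower after FeSO4 in PBS-treated mice, 1 and 0 in DEX-treated mice, and 0 after DEX. Lower calls for FeSO4/PBS, 5 in the report, numbered 3 with DESeq2, 3 with its size factors, 3 without a filter and 2 with the libraries of the comparison alone. Higher calls for NaCl/DEX, 1 in the report, numbered 2 with DESeq2, 0 without a filter and 8 with the comparison's libraries alone, and lower calls 1 without a filter and 1 with those libraries; the cause was not tested.

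With 1 mouse left out in turn, FeSO4/PBS gave 22 to 26 higher and 2 to 5 lower members, the latter 2 when FeSO4/PBS mouse 3 or NaCl/PBS mouse 1 was absent and 3 when FeSO4/PBS mouse 2, NaCl/PBS mouse 2 or NaCl/DEX mouse 3 was. FeSO4/DEX gave 6 to 15 higher and 3 to 6 lower, and NaCl/DEX 0 to 7 higher and 0 to 1 lower. Of the 23 higher calls after FeSO4, 22 held in all 12 such fits, all but Psmb7, and of the 5 lower ones Psmb9 and Psmd5. The log2 ratios ranged from -1.09 to -0.83 (Psmb9 to Psmb6), -0.50 to -0.36 (Psmb10 to Psmb7) and -0.54 to -0.44 (Psmb8 to Psmb5).

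The labels do not say whether the replicate numbers pair mice. Deviations of same-numbered mice correlated at -0.09 to 0.13 and those of differently numbered mice at -0.15 to 0.11, which cannot exclude a weak pairing. With the replicate block there were 22 higher and 5 lower members after FeSO4 in PBS-treated mice and 0 higher after DEX, and the ratio differences of -0.93, -0.45 and -0.48 had an adjusted exact permutation p of 0.094 each. In the 6 PBS-treated mice alone these were -1.34, -0.64 and -0.72 (adjusted exact p 0.1 each), and in the 6 DEX-treated mice alone -0.53, -0.26 and -0.24 (0.4, 0.4 and 0.3).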
